A study of Mus musculus with 15 samples.

Results

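The auditory nerve of mice at postnatal day (P) 14 was compared with the nerve at P3 by bulk RNA sequencing, with 3 libraries per age. The comparison asks which transcripts differ between a nerve that has begun to carry sound and a nerve that has not, since mice begin to hear airborne sound towards the end of the second postnatal week. These 6 libraries belong to a series of 15 that also holds P7, P21 and adult nerves. Each library came from 1 mouse, with the nerve dissected out of both cochleae and pooled, and the labels give tissue and age but no strain, genotype, sex, litter or date. All 16723 genes that passed a filter on low values, of 18536 in the deposited table, were tested.

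The auditory nerve holds the spiral ganglion neurons, which receive glutamate from the hair cells of the cochlea and pass it on as precisely timed spikes to the cochlear nucleus of the brainstem. Schwann cells myelinate the peripheral part of the nerve, and in most mammals also the cell bodies, whereas oligodendrocytes and astrocytes populate the central part near the brainstem. Before hearing, hair cells drive the neurons in spontaneous bursts while axons are still being sorted, myelinated and refined. The nerve runs through the bony modiolus, so that bone, cartilage, marrow and vessels lie next to it.

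Levels are given as normalized read counts, the reads of a gene after division by the size factor of its library. The 6 libraries held between 38114662 and 41306627 recovered reads, so that 3 reads were worth 2.53 to 3.22 normalized counts, a floor that covers counting error only. Eif2s3y, a Y-linked gene, stood at 0, 2526 and 1576 in P14 replicates 1, 2 and 3, and between 2751 and 2821 in the P3 libraries, while Xist, expressed from the inactive X chromosome, stood at 33477 in P14 replicate 1 and at 225 or below in the other 5. P14 replicate 1 thus had the female pattern and the rest the male pattern. P14 replicate 3 stood apart in genes of the central part of the nerve. Its summed oligodendrocyte markers reached 196120, against 101520 and 120880 in the other P14 libraries, and its fibrocyte and strial markers 396250, against 682330 and 785410. P3 replicate 1 was the lowest P3 library for every listed interferon and antigen presentation gene, and its osteoclast markers summed to 94611, against 164140 and 151300 in the other P3 libraries. Genes of neurons and of myelinating Schwann cells were high in every library, for example Nefh between 80962 and 88684 at P14 and between 10375 and 15160 at P3. In bulk libraries, fewer cells of a type and less RNA per cell cannot be told apart.

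Of the 16723 genes tested, 9717 were called (58.1%), which here means a Benjamini-Hochberg adjusted p under 0.05 in limma. Of these, 4837 rose (28.9%) and 4880 fell (29.2%) at P14 relative to P3, and the median log2 fold change over all genes tested was -0.03. At least 2-fold, 1757 genes rose (10.5%) and 1976 fell (11.8%). At least 8-fold, 141 rose and 278 fell. All 3 P14 libraries lay on 1 side of all 3 P3 libraries for 11167 genes (66.8%), 5462 of them higher and 5705 lower at P14. The authors' deposited table listed 4992 genes as higher and 5142 as lower at P14 at a false discovery rate under 0.05, and 9645 genes were called in that table and in limma with the same direction. Since more than every other gene was called, a list with a share of calls near 58.1% is not set apart by its count alone.

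**Figure D1:**
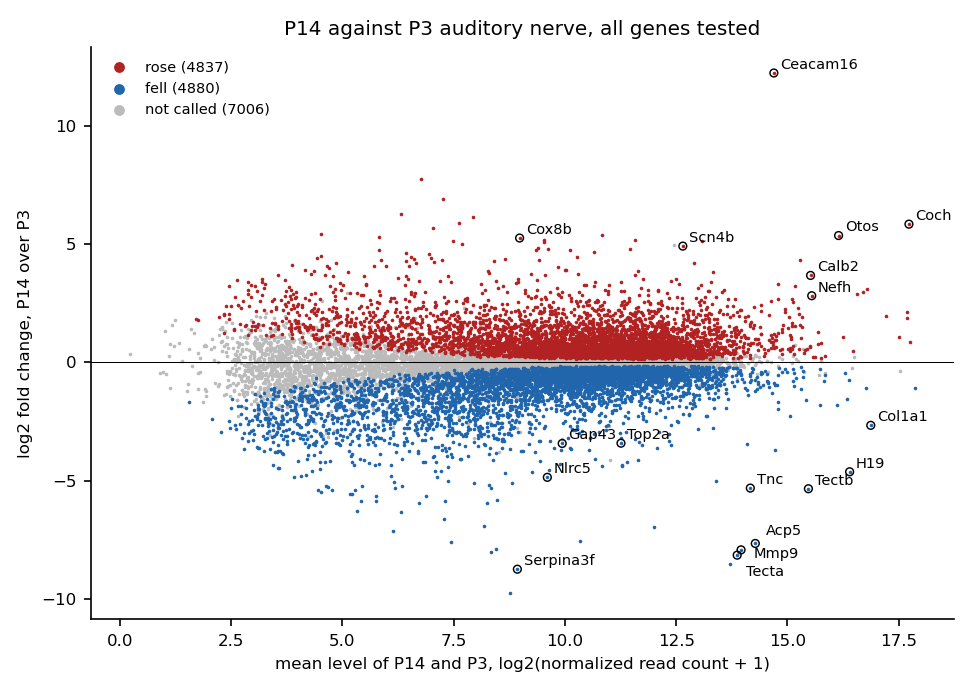
Log2 fold change of P14 over P3 (vertical axis) against the mean level of both ages on a log2 scale (horizontal axis) for the 16723 genes tested, 1 point per gene, coloured by whether it rose, fell or was not called. Changes of more than 8-fold were more often decreases (278 genes) than increases (141 genes), and Ceacam16 had the highest value.

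Largest changes are given for genes above a minimum level and without overlap between the ages, since genes of low counts can reach larger fitted values. Genes of the tectorial membrane and of cochlear fibrocytes were among those that rose most. Ceacam16, which encodes a secreted protein of the tectorial membrane (chromosome 7, 19852097 to 19861299), stood at 63955, 59747 and 35337 in the P14 libraries, against 9.27, 8.54 and 11.3 in the P3 libraries (log2 fold change 12.23 ± 0.29 SE, adjusted p = 2.94e-11). The P3 libraries together held 32 reads of it. Coch, the secreted cochlin of spiral ligament and limbus fibrocytes (chromosome 12, 51593341 to 51605773), reached 466750, 559860 and 255770 at P14, against 8162, 6912 and 6218 at P3 (5.85 ± 0.25, adjusted p = 1.75e-09), and was the most abundant gene of P14 replicates 1 and 2. Otospiralin, encoded by Otos and made by the same fibrocytes, stood at 168080, 166030 and 91758, against 2956, 3623 and 3414 (5.36 ± 0.24, adjusted p = 2.13e-09). P14 replicate 3 was the lowest P14 library for all of these, yet far above every P3 library.

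Among the other genes that rose most were Odf3l2 (log2 fold change 6.16 ± 0.45 SE), Gpx2, a glutathione peroxidase (5.40 ± 0.36), Cox8b, a subunit of cytochrome c oxidase (5.26 ± 0.39), and Fam178b (5.19 ± 0.21). They were followed by Lrrc30 (5.18 ± 0.16), the serine protease gene Prss36 (5.15 ± 0.25) and Inmt, an N-methyltransferase (5.11 ± 0.23). Prss36 was the most abundant of these, at 20819, 17380 and 12631 in the P14 libraries and 544, 436 and 428 in the P3 libraries. A call and a lack of overlap between the ages were conditions for naming them. Their adjusted p lay between 1.87e-10 and 1.41e-07.

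Genes of bone-resorbing cells, of growing cartilage and of the tectorial membrane were among those that fell most. Tecta, a tectorin of the tectorial membrane (chromosome 9, 42329619 to 42399929), stood at 143, 66.3 and 114 in the P14 libraries, against 22758, 30844 and 35914 in the P3 libraries (log2 fold change -8.15 ± 0.52 SE, adjusted p = 3.02e-08). Mmp13, the collagenase of bone and hypertrophic cartilage, stood at 87.9, 20.4 and 194, against 23276, 31709 and 24815 (-8.52 ± 0.92, adjusted p = 4.15e-06). Col10a1, the collagen of hypertrophic cartilage, stood at 82.7, 26.5 and 119, against 8262, 9041 and 6901 (-6.94 ± 0.89, adjusted p = 1.97e-05). Serpina3f, a serine protease inhibitor, was at 8.27, 0 and 0, a total of 8 reads at P14, against 494, 1281 and 1140 (-8.74 ± 0.91, adjusted p = 2.85e-06). Sst, the neuropeptide somatostatin, was at 0, 0 and 37.6, against 895, 102 and 706 (-6.90 ± 1.94, adjusted p = 0.00785). Without P14 replicate 2 the log2 fold change was -7.64 for Mmp13 and -6.32 for Col10a1. Without P14 replicate 3 it was -9.24 for Mmp13, and without P14 replicate 1 it was -9.81 for Serpina3f. That of Sst lay between -8.66 and -6.02 with any 1 of P14 replicates 1, 2 and 3 or P3 replicate 2 left out. Its adjusted p was 0.0519 in limma-voom and 0.0569 without the libraries low in Eif2s3y.

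Genes of the spiral ganglion neurons are described next, beginning with the channels that generate and shape the spike. Of 11 voltage-gated sodium channel genes, 4 rose and 6 fell, with a median log2 fold change of -0.54. Scn4b, an auxiliary subunit that supports fast resurgent current (chromosome 9, 45139042 to 45154061), stood at 11616, 13617 and 12041 in the P14 libraries, against 374, 339 and 540 in the P3 libraries (log2 fold change 4.92 ± 0.18 SE, adjusted p = 3.81e-10). Scn8a, whose pore-forming subunit occupies mature nodes of Ranvier (chromosome 15, 100870645 to 101045938), stood at 5430, 6619 and 6276, against 1437, 1074 and 1964 (2.07 ± 0.19, adjusted p = 8.46e-07). Scn1a, an alpha subunit of fast-spiking neurons, rose too (1.32 ± 0.22, adjusted p = 0.000205). Scn3a, a channel of immature neurons, fell to 146, 162 and 211 at P14, against 867, 643 and 895 at P3 (-2.21 ± 0.22, adjusted p = 2.41e-06). The channels of nociceptors and other sensory neurons, Scn9a, Scn10a and Scn11a, fell as well. Scn11a stood at 0, 0 and 1.07 at P14, against 21.1, 75 and 16.9 at P3, and Scn9a at 130, 105 and 127, against 775, 680 and 956. The ages did not overlap for any of the 10 members that were called, nor for 66.8% of all genes tested.

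Of 24 potassium and HCN channel genes, 13 rose and 2 fell, with a median log2 fold change of 1.01. The share called was 62.5%, against 58.1% of all genes. Kcna1 and Kcna2 encode low-threshold channels that sit beside the paranode. Kcna1 stood at 41013, 46708 and 42290 in the P14 libraries, against 5056, 8055 and 9042 in the P3 libraries, and Kcna2 at 21971, 25517 and 23061, against 3624, 4482 and 5551, and both rose. Kcnab2, their auxiliary subunit (log2 fold change 3.41 ± 0.12 SE, adjusted p = 3.79e-10), the leak channel Kcnk1 (2.57 ± 0.10, adjusted p = 9.01e-10) and the pacemaker channel Hcn2 (2.89 ± 0.18, adjusted p = 2.82e-08) rose with them. Both members that fell were of the Kv1 family, Kcna4 (-2.06 ± 0.21, adjusted p = 2.67e-06) and Kcna6 (-0.75 ± 0.20, adjusted p = 0.00523).

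Among 21 genes listed for the gaps between myelin segments (nodes and paranodes), 15 rose and 3 fell. Their median log2 fold change was 1.01. Gldn, the Schwann cell protein gliomedin that gathers sodium channels at nodes (chromosome 9, 54286486 to 54341777), stood at 7682, 8872 and 8376 in the P14 libraries, against 1134, 1836 and 2033 in the P3 libraries (log2 fold change 2.36 ± 0.18 SE, adjusted p = 1.59e-07). Sptbn4, the spectrin of the nodal scaffold, stood at 2618, 3103 and 3092, against 590, 365 and 815 (2.38 ± 0.24, adjusted p = 2.38e-06). Adam22 (1.01 ± 0.10) and Epb41l3 (0.86 ± 0.08), components of the juxtaparanode and paranode, rose as well. Ank3, the ankyrin G that anchors nodal channels, stood at 3384, 3779 and 3949, against 2806, 3006 and 3378, without overlap but short of the threshold (0.28 ± 0.15, adjusted p = 0.137). Lower at P14 were the membrane scaffold genes Epb41l2 (-0.31 ± 0.12, adjusted p = 0.0331) and Dlg1 (-0.24 ± 0.08, adjusted p = 0.0161). The other listed member that fell, Nfix (-0.60 ± 0.15, adjusted p = 0.00371), encodes a transcription factor and not a structural protein of the node. Epb41l2 was not called without P14 replicate 1, P14 replicate 2, P3 replicate 2 or P3 replicate 3 (adjusted p between 0.106 and 0.132). Dlg1 was not called without P14 replicate 1, P14 replicate 2 or P3 replicate 1 (adjusted p between 0.0511 and 0.0812), so that 1 member fell without either P14 replicate 1 or 2.

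Of 14 genes of the extracellular matrix that surrounds nodes and synapses, 6 rose and 6 fell. Hapln4, the link protein that ties brevican to hyaluronan at nodes (chromosome 8, 70083529 to 70090862), stood at 5127, 5901 and 5178 in the P14 libraries, against 218, 124 and 255 in the P3 libraries (log2 fold change 4.81 ± 0.22 SE, adjusted p = 2.23e-09). Hapln1 (1.43 ± 0.10, adjusted p = 1.06e-07), the lectican Bcan (1.48 ± 0.29, adjusted p = 0.000641) and Hapln2 (5.12 ± 0.90, adjusted p = 0.00028) also rose. Tnc, the tenascin of immature matrix, fell to 735, 660 and 1397, against 25148, 41528 and 40743 (-5.31 ± 0.55, adjusted p = 2.87e-06). Vcan, the lectican versican, fell to 186, 512 and 1608, against 4937, 6216 and 6847 (-3.47 ± 0.51, adjusted p = 6.80e-05), and Ptprz1, a receptor phosphatase that binds these proteins, fell too (-1.67 ± 0.23). Hapln2, at 46.5, 257 and 754 at P14, followed the oligodendrocyte markers of those libraries. With P14 replicate 3 left out, the log2 fold change was 4.20 for Hapln2 and -4.26 for Vcan, and with P14 replicate 1 left out it was 6.19 and -2.71.

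Of 27 genes of presynaptic release, 20 rose and 2 fell, with a median log2 fold change of 1.6. Slc17a7, the transporter that loads vesicles with glutamate (chromosome 7, 45163921 to 45176139), stood at 16303, 18402 and 16699 in the P14 libraries, against 2920, 2549 and 3877 in the P3 libraries (log2 fold change 2.48 ± 0.13 SE, adjusted p = 6.21e-09). Vamp1, a synaptobrevin of the vesicle membrane (chromosome 6, 125215581 to 125222306), stood at 53380, 54224 and 47369, against 5085, 4465 and 6059 (3.32 ± 0.11, adjusted p = 2.52e-10). Snap25, its partner on the plasma membrane, rose by 3.25 ± 0.14 (adjusted p = 1.75e-09) and Rab3a, a vesicle GTPase, by 2.06 ± 0.11 (adjusted p = 8.24e-09). The active zone genes Bsn, Rims1 and Unc13a were not called (adjusted p = 0.114, 0.286 and 0.115). Falling members were Stx1a, a syntaxin, at 415, 413 and 495 against 1096, 1061 and 1003 (-1.26 ± 0.11, adjusted p = 7.77e-07), and Cplx2, a complexin, at 1311, 941 and 1585 against 3285, 3396 and 4202 (-1.53 ± 0.33, adjusted p = 0.00144).

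Of 27 receptor genes for glutamate, GABA and glycine that could be tested, 7 rose, 8 fell and 12 were not called. The share called was 55.6%, against 58.1% of all genes. The AMPA receptor subunits Gria2 (log2 fold change 0.73 ± 0.19 SE), Gria3 (0.68 ± 0.10) and Gria4 (0.55 ± 0.09), through which hair cell glutamate excites the neurons, rose with Grin1, the obligatory NMDA receptor subunit (2.08 ± 0.20, adjusted p = 1.74e-06). The metabotropic receptors Grm7 (1.58 ± 0.12) and Grm8 (2.47 ± 0.16) and the glycine receptor beta subunit Glrb (2.14 ± 0.12) were the other members that rose. Glrb stood at 19934, 20443 and 15164 in the P14 libraries, against 4725, 3901 and 3951 in the P3 libraries, whereas the alpha subunits that complete the receptor were low. Glra1 stood at 0, 0 and 20.4, against 29.5, 9.49 and 47.1, and Glra2 at 9.30, 0 and 20.4, against 148, 75 and 153. Most other members that are abundant in central neurons were highest in P14 replicate 3 among the P14 libraries, for example Gabra2 at 23.8, 63.3 and 322, against 180, 124 and 239. Without P14 replicate 3, 16 members fell and 7 rose, among them Gabra2 (-2.14, adjusted p = 0.00421) and Glra1 (-4.64, adjusted p = 0.00891). Glra2 had a log2 fold change of -5.23 with P14 replicate 3 left out and of -3.02 with P14 replicate 2 left out.

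Of 23 genes of the neuronal cytoskeleton, 18 rose and 1 fell, with a median log2 fold change of 1.15. The members that fell were 2 without P3 replicate 3, and also with quantile normalization, edgeR, DESeq2 or the replicate block. Nefh, the heavy neurofilament subunit that widens axons (chromosome 11, 4938756 to 4948064), stood at 81140, 88684 and 80962 in the P14 libraries, against 10375, 10506 and 15160 in the P3 libraries (log2 fold change 2.82 ± 0.17 SE, adjusted p = 1.90e-08). Tuba4a, an alpha tubulin (2.27 ± 0.11), Stmn3, a regulator of microtubule assembly (1.97 ± 0.15), and Dync1i1, an intermediate chain of the retrograde motor dynein (1.94 ± 0.11), also rose, with adjusted p of 5.17e-09, 1.62e-07 and 1.48e-08. Tubb2b, the beta tubulin of growing axons, was the member that fell, at 677, 835 and 1762, against 8666, 6130 and 8467 (-2.94 ± 0.29, adjusted p = 1.75e-06).

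Of 31 genes of axon growth and guidance, 0 rose and 23 fell, with a median log2 fold change of -0.97. Gap43, the growth cone protein (chromosome 16, 42248561 to 42340651), stood at 117, 139 and 273 in the P14 libraries, against 1934, 1490 and 1930 in the P3 libraries (log2 fold change -3.42 ± 0.41 SE, adjusted p = 1.06e-05). Robo2, a receptor for the repellent Slit proteins, stood at 362, 374 and 573, against 2239, 2276 and 2242 (-2.40 ± 0.19, adjusted p = 2.48e-07). Its ligand gene Slit2 stood at 3217, 2834 and 4186, against 9108, 13702 and 13642. Basp1, a growth cone protein like Gap43 (-1.6 ± 0.10), and Ephb2, a receptor for ephrins (-1.84 ± 0.20), fell too. The guidance and adhesion genes Nrp1, Epha4, Epha5, Ncam1 and L1cam were among the 8 not called. Leaving out the libraries low in Eif2s3y made 2 members rise.

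Of 23 genes that mark spiral ganglion neurons or their subtypes, 15 rose and 2 fell, with a median log2 fold change of 1.11. Calb2, the calcium buffer calretinin (chromosome 8, 110142538 to 110168206), stood at 97261, 98386 and 65809 in the P14 libraries, against 5783, 7344 and 7072 in the P3 libraries (log2 fold change 3.68 ± 0.17 SE, adjusted p = 2.15e-09). Lypd1, a surface protein of a neuron subtype (3.32 ± 0.13), Thy1, a surface protein of projection neurons (3.00 ± 0.13), and Eno2, the neuronal enolase (2.42 ± 0.10), also rose. The transcription factor genes Gata3, Runx1 and Neurod1 were not called (adjusted p = 0.764, 0.159 and 0.275). Etv4, a transcription factor, fell (-0.58 ± 0.24, adjusted p = 0.0494). It was not called without P14 replicate 1, P14 replicate 2, P3 replicate 1 or P3 replicate 3 (adjusted p between 0.086 and 0.19), and 0 members of the list fell without P14 replicate 1 or without P3 replicate 3.

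**Figure D2:**
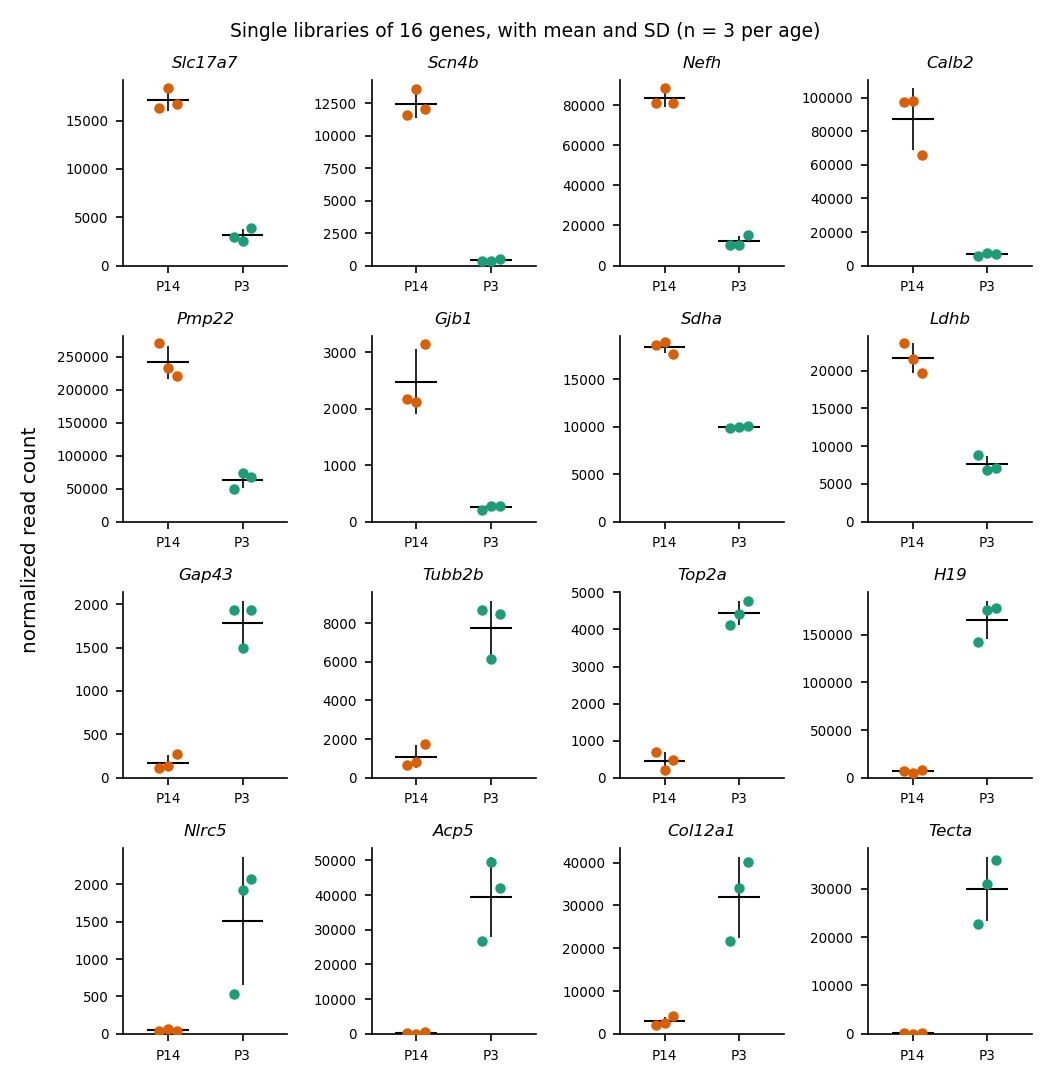
Normalized read counts (vertical axes, linear from 0) of 16 genes in each P14 and P3 library (points), with the mean (horizontal line) and SD (vertical line) of the 3 libraries per age. Genes of firing, myelin and metabolism, such as Slc17a7, Pmp22 and Sdha, were higher in each P14 library, and Gap43, Top2a, H19, Acp5 and Tecta were lower, without overlap between the ages.

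Related genes were compared by the log2 ratio of their normalized counts in each library. Of 25 pairs, 19 had every P14 ratio above every P3 ratio, 3 had every P14 ratio below, and 3 overlapped. Among single genes, 66.8% of all tested did not overlap between the ages, but no such share was obtained for ratios of other gene pairs. The first gene of each pair was the one listed as the member of mature neurons. With 3 libraries against 3, the exact permutation test (two-sided) cannot go below 0.1, so no pair could pass 0.05. The 22 pairs without overlap had that p, or 0.114 when Benjamini-Hochberg adjusted over the 25 pairs. In 8 pairs the gene given first here rose and its partner fell. The ratio of Scn4b to Scn3b was 20 at P14 and 0.243 at P3, a shift of 6.36 on the log2 scale, and that of Scn8a to Scn3a was 35.4 at P14 and 1.82 at P3, a shift of 4.28. Tubb4a, a beta tubulin of mature axons and oligodendrocytes, stood at a ratio to Tubb2b of 13 at P14 and 0.518 at P3 (shift 4.65), and Bcan to Vcan at 14.6 and 0.471 (shift 4.95). Per kilobase of exon, Scn4b stood at 2494 normalized counts and Scn3b at 114 at P14, and at 83.8 and 310 at P3, so the order of these beta subunits differed between ages. The order of Tubb4a (6118 at P14, 1802 at P3) and Tubb2b (476 at P14, 3380 at P3) differed too. Bcan was above Vcan per kilobase at both ages.

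Pairs of the release machinery shifted too. The ratio of Syt2 to Syt1, calcium sensors of fast release, was 9.17 at P14 and 0.461 at P3 (shift 4.31), although Syt1 itself was not called (1048, 296 and 1988 against 3019, 2245 and 3214, adjusted p = 0.105). Syt1 fell without P14 replicate 3 (adjusted p = 0.0488) or with only both ages in the fit (adjusted p = 0.0477). Cplx1 to Cplx2 shifted by 3.66 and Vamp1 to Vamp2 by 3.06. Per kilobase of exon, Vamp1 stood at 5081 normalized counts and Vamp2 at 1759 at P14, whereas Vamp1 stood at 512 and Vamp2 at 1473 at P3, so the order of these synaptobrevins differed between ages. Slc17a7 to Slc17a6, the vesicular glutamate transporters, shifted by 1.57 while both rose. Per kilobase, Slc17a7 stood at 3178 and Slc17a6 at 858 at P14, and at 578 and 469 at P3.

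Other pairs included structural and metabolic genes. Nefh to Nefm and Map1a to Map1b each shifted by 1.16, with all 4 genes rising, and Hapln4 to Hapln1 by 3.38. Kcnc1 to Kcnc4 shifted by 2.54, with Kcnc4 not called (158, 110 and 212 against 137, 135 and 184). Ldhb to Ldha, the lactate dehydrogenase subunits of oxidative and glycolytic tissue, shifted by 2.16, since Ldhb rose (1.51 ± 0.10, adjusted p = 5.76e-08) and Ldha fell (-0.65 ± 0.14, adjusted p = 0.00103). Per kilobase of exon, Ldhb stood at 13774 normalized counts and Ldha at 1878 at P14, and at 4845 and 2950 at P3. Tuba4a to Tuba1a shifted by 2.21 and Cox8b to Cox8a by 4.47. Dnmt3a to Dnmt3b, the de novo DNA methyltransferases, shifted by 1.16 because Dnmt3b fell (127, 131 and 156 against 335, 290 and 290, adjusted p = 2.02e-05) while Dnmt3a was not called (adjusted p = 0.964).

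The pairs that went the other way were Pvalb to Calb2, H1f0 to Hist1h1e and Grin2a to Grin2b. Pvalb, the calcium buffer parvalbumin, rose by 2.13 ± 0.13 but Calb2 by more, a shift of -1.55. Per kilobase of exon, Pvalb stood at 23491 normalized counts and Calb2 at 50001 at P14, and at 5354 and 3863 at P3, so their order differed between ages. Grin2a and Grin2b, NMDA receptor subunits, had P14 values of 5.37 or less in every library, near the floor. Hist1h1e had P14 values of 26.8 or less and belongs to a family of near-identical histone genes. Overlapping ratios were found for Slc12a5 to Slc12a2, Glra1 to Glra2 and Cox6a2 to Cox6a1, with exact permutation p of 0.3, 0.4 and 0.8. Slc12a5, the chloride exporter KCC2, stood at 94.1, 74.5 and 673 at P14, against 773, 392 and 804 at P3 (-1.89 ± 0.86, adjusted p = 0.075), and fell without P14 replicate 3 (-2.88, adjusted p = 0.00658).

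**Figure D3:**
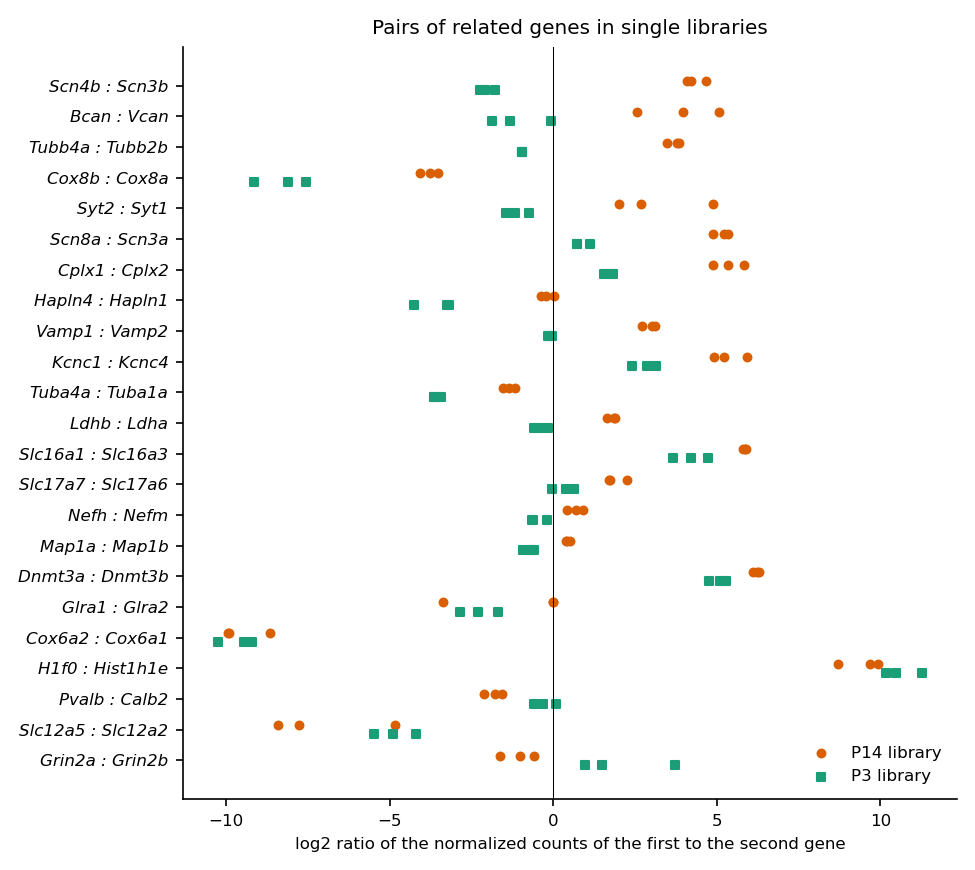
Log2 ratio of the normalized counts of the first to the second gene of 23 of the 25 pairs (horizontal axis), with 1 point per P14 library (circles) and P3 library (squares), ordered by the shift between ages. The 17 pairs shown with every circle to the right of every square include Scn4b to Scn3b (shift 6.36) and Syt2 to Syt1 (shift 4.31).

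Of 20 genes of compact peripheral myelin, the sheath that Schwann cells wrap, 18 rose and 1 fell, with a median log2 fold change of 1.70. Pmp22, a structural protein of that myelin (chromosome 11, 63128982 to 63159547), stood at 270420, 232620 and 221740 in the P14 libraries, against 49085, 73622 and 67252 in the P3 libraries (log2 fold change 1.95 ± 0.15 SE, adjusted p = 1.75e-07). Gjb1, the gap junction protein connexin 32 of noncompact myelin, rose too (2172, 2123 and 3143 against 212, 273 and 276, log2 fold change 3.27 ± 0.14, adjusted p = 1.75e-09). Drp2, a dystrophin-related protein that links myelin to the Schwann cell surface (3.04 ± 0.19), Fa2h, which hydroxylates the fatty acids of myelin lipids (2.75 ± 0.17), and Mal, a proteolipid (2.25 ± 0.14), rose too. Mbp, at 215900, 271010 and 565350 against 64193, 80202 and 77340 (2.13 ± 0.31, adjusted p = 5.96e-05), is made by both kinds of myelinating cell and was highest in P14 replicate 3. Pmp2, a fatty acid binding protein of a subset of Schwann cells, was the member that fell (238, 120 and 547 against 844, 1032 and 1105, -1.97 ± 0.42, adjusted p = 0.00119).

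Of 17 genes of Schwann cell transcription and signalling, 7 rose and 3 fell. That share of calls (58.8%) was near the 58.1% of all genes. Egr2, the transcription factor that drives myelin genes, stood at 4276, 4694 and 4225 in the P14 libraries, against 1734, 2998 and 2718 in the P3 libraries (log2 fold change 0.86 ± 0.21 SE, adjusted p = 0.00339). Ndrg1, a gene of mature Schwann cells that is mutated in a demyelinating neuropathy (2.69 ± 0.14, adjusted p = 8.28e-09), and Nrg1, the axonal neuregulin (1.31 ± 0.21, adjusted p = 0.000115), rose. Adgrg6, the receptor that starts myelination, fell to 1008, 1109 and 1088, against 3436, 3839 and 3736 (-1.78 ± 0.14, adjusted p = 2.03e-07), and Yy1 (-0.43 ± 0.08) and Tead1 (-0.42 ± 0.13), transcription factors of the same programme, fell with it. Tead1 was not called without P14 replicate 1, P3 replicate 2 or P3 replicate 3 (adjusted p between 0.0505 and 0.0545), and 5 members fell without P3 replicate 1.

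Of 17 genes of immature or nonmyelinating Schwann cells, 4 rose and 7 fell, so that 64.7% were called, against 58.1% of all genes. Fabp7, a fatty acid binding protein of immature glia, fell to 1279, 1273 and 2937 in the P14 libraries, against 13228, 5772 and 10446 in the P3 libraries (log2 fold change -2.46 ± 0.41 SE, adjusted p = 0.000199). Ednrb, an endothelin receptor, fell to 2073, 2569 and 6002, against 16036, 14697 and 15069 (-2.26 ± 0.29, adjusted p = 1.93e-05), and Sox2 fell by 0.88 on the log2 scale. Scn7a, a channel of nonmyelinating Schwann cells (2.17 ± 0.20, adjusted p = 8.09e-07), Ngfr, the neurotrophin receptor p75 (0.96 ± 0.21), Jun (0.70 ± 0.14) and Id4 (0.47 ± 0.11) rose.

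Oligodendrocyte markers, of the central part of the nerve, rose on balance and were uneven among the P14 libraries. Of 18 oligodendrocyte genes, 11 rose and 2 fell, and their summed level lay between 101520 and 196120 at P14 and between 56266 and 63841 at P3. Mog, a surface protein of central myelin, stood at 432, 1484 and 7532 in the P14 libraries, against 147, 31.3 and 60.3 in the P3 libraries. P14 replicate 3 was the highest and P14 replicate 1 the lowest P14 library for all 18 genes. Ermn, a cytoskeletal protein of oligodendrocytes, stood at 187, 861 and 2879, against 56.5, 12.3 and 25.4 (log2 fold change 4.83 ± 0.91 SE, adjusted p = 0.000493). With P14 replicate 3 left out its log2 fold change was 3.88, and with P14 replicate 1 left out 5.85. In limma-voom its adjusted p was 0.0556. Without P14 replicate 3, 11 members rose, and in limma-voom 7 did. The part of the central share of the dissection in these values was not tested. The members that fell were the precursor markers Cspg4 (-1.27 ± 0.28, adjusted p = 0.0014), which pericytes share, and Pdgfra (-0.40 ± 0.16, adjusted p = 0.0461), which fibroblasts share. Pdgfra was not called when any 1 library other than P3 replicate 1 was left out (adjusted p between 0.0508 and 0.158).

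Of 13 astrocyte genes, 6 rose and 2 fell, a share of calls (61.5%) near the 58.1% of all genes. Glul, glutamine synthetase, stood at 60837, 65815 and 55352 in the P14 libraries, against 11734, 9222 and 10212 in the P3 libraries (log2 fold change 2.55 ± 0.09 SE, adjusted p = 3.79e-10), and S100b, a calcium-binding protein that Schwann cells share, at 53406, 54181 and 38495, against 9476, 6764 and 6409 (2.69 ± 0.17, adjusted p = 2.65e-08). Gfap, the astrocyte filament protein, was not called (2010, 4966 and 24214 against 5273, 665 and 1357, adjusted p = 0.0641). P14 replicate 3 was the highest P14 library for Gfap but the lowest for Glul and S100b. Etnppl, a phospholyase, stood at 1561, 1930 and 934, against 185, 58.8 and 11.3 (4.78 ± 0.75, adjusted p = 0.000113), with a log2 fold change of 5.70 without P3 replicate 1 and 3.74 without P3 replicate 3. Falling members were Gja1, the gap junction protein connexin 43 (-0.76 ± 0.29, adjusted p = 0.0353), and Sox9 (-0.41 ± 0.16, adjusted p = 0.0475). Gja1 was not called without any 1 library other than P14 replicate 3, and Sox9 not without P14 replicate 1, P14 replicate 3, P3 replicate 1 or P3 replicate 2, with adjusted p between 0.0633 and 0.171.

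Myelin is rich in cholesterol, which glia largely make themselves. Of 22 genes of cholesterol synthesis and its control, 13 rose, 0 fell and 9 were not called. Their median log2 fold change was 0.44, and the share called (59.1%) was near the 58.1% of all genes. Without P14 replicate 3, 1 member fell. Msmo1, the sterol C4-methyl oxidase, stood at 5127, 4946 and 5425 in the P14 libraries, against 2543, 2587 and 2302 in the P3 libraries (log2 fold change 1.06 ± 0.11 SE, adjusted p = 1.81e-06). Hmgcs1, the synthase at the start of the pathway (0.98 ± 0.11), and Insig1, the sterol sensor of the endoplasmic reticulum (0.71 ± 0.08), rose as well. Promoters of this pathway are known for CCAAT boxes beside their sterol response elements. The motif CCAAT, searched on both strands in RefSeq promoters (GRCm38.p6, 250 bases before to 50 after the start), was found in 15 of 16 listed genes with a promoter entry (93.8%), against 38.1% of the 12864 tested genes with an entry. The sterol response element letters TCACNCCAC were found in 1 of them (6.25%), against 1.10% of all. The 200 bases before the start of Insig1 held 0 matches to either motif. The 200 bases before the start of Msmo1 (chr8:64733579-64733778, minus strand) are shown as an example with 3 CCAAT boxes, in capitals, that begin at positions -160, -96 and -55 from the start.
Msmo1: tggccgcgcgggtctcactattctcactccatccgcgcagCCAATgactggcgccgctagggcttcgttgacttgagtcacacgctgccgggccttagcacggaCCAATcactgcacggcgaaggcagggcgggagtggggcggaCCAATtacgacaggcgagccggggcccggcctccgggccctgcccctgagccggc

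Among 30 nuclear genes for respiratory chain subunits, 29 rose, 0 fell and 1 was not called, with a median log2 fold change of 0.78. Sdha, the catalytic subunit of succinate dehydrogenase (chromosome 13, 74322255 to 74350240), stood at 18654, 18930 and 17666 in the P14 libraries, against 9839, 9950 and 10049 in the P3 libraries (log2 fold change 0.89 ± 0.05 SE, adjusted p = 1.82e-08). Ndufv1 of complex I (0.90 ± 0.07, adjusted p = 1.52e-07) and Atp5b of the ATP synthase (0.79 ± 0.06, adjusted p = 2.78e-07) rose by similar amounts. Most members changed by less than 2-fold, and 5 of the called members rose by at least 2-fold. Cox8b, the isoform of heart and skeletal muscle, stood out at 1091, 1112 and 742, against 43.0, 26.6 and 12.2 (5.26 ± 0.39, adjusted p = 1.41e-07). Cox6a2, the muscle isoform of another subunit, was the member not called, at 9.30, 8.16 and 21.5, against 3.37, 5.69 and 7.53 (log2 fold change 1.03). It passed the threshold with quantile normalization (1.62, adjusted p = 0.0159). The NRF1 motif GCGCANGCG was found in 6 of 20 promoters of the list (30.0%), against 11.9% of all promoters of tested genes.

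Of 22 genes of glycolysis and lactate exchange, 17 rose and 4 fell, with a median log2 fold change of 1.03. Aldoa, an aldolase (1.54 ± 0.07, adjusted p = 2.15e-09), Pfkm, the phosphofructokinase of muscle and neurons (1.29 ± 0.09, adjusted p = 5.60e-08), and Pkm, pyruvate kinase (1.16 ± 0.07, adjusted p = 2.25e-08), rose. The glucose transporter gene Slc2a1 stood at 4720, 6114 and 5472 in the P14 libraries, against 2791, 2095 and 2032 in the P3 libraries (log2 fold change 1.24 ± 0.13 SE, adjusted p = 2.92e-06). The members that fell were Ldha, the monocarboxylate transporters Slc16a3 (-1.24 ± 0.30, adjusted p = 0.0029) and Slc16a7 (-1.49 ± 0.17, adjusted p = 6.82e-06), and Hk2, a hexokinase of growing tissue (-0.36 ± 0.14, adjusted p = 0.0409). Hk2 was not called without P14 replicate 1, P14 replicate 2, P3 replicate 2 or P3 replicate 3 (adjusted p between 0.0726 and 0.204). Slc16a1, the lactate transporter of glia, rose by 0.41 ± 0.13 (adjusted p = 0.014) but was not called without P14 replicate 3 (adjusted p = 0.0621) or P3 replicate 2 (adjusted p = 0.056).

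Of 20 genes of ion pumps, calcium extrusion and chloride transport, 12 rose and 4 fell. Atp1b1, a beta subunit of the sodium pump, which restores gradients after spikes, rose by 1.91 ± 0.11 (log2 fold change ± SE), the pump regulator Fxyd6 by 1.91 ± 0.13, Atp1b3 by 1.5 ± 0.11 and the calcium pump Atp2b3 by 2.23 ± 0.20. The members that fell were Fxyd7, another pump regulator (154, 95.9 and 205 against 763, 734 and 890, -2.45 ± 0.40), the calcium pump Atp2b1 (-0.46 ± 0.08), and the sodium-calcium exchangers Slc8a2 (-1.43 ± 0.18) and Slc8a1 (-1.04 ± 0.37, adjusted p = 0.0283). Slc8a1 was not called without P14 replicate 1, P14 replicate 2, P3 replicate 1 or P3 replicate 3 (adjusted p between 0.0652 and 0.0934).

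Of 33 cell cycle and DNA replication genes, 0 rose, 32 fell and 1 was not called, with a median log2 fold change of -2.15. Top2a, the topoisomerase of dividing cells (chromosome 11, 98992947 to 99024189), stood at 689, 216 and 481 in the P14 libraries, against 4115, 4429 and 4775 in the P3 libraries (log2 fold change -3.41 ± 0.63 SE, adjusted p = 0.000422). Mcm6, a subunit of the replicative helicase, stood at 754, 535 and 604, against 2133, 1992 and 2292 (-1.77 ± 0.16, adjusted p = 1.00e-06). Foxm1, a transcription factor of mitosis (-2.16 ± 0.19), Tyms, thymidylate synthase (-2.24 ± 0.21), and Mcm4 (-1.15 ± 0.10) fell too. P14 replicate 2 was the lowest P14 library for 29 of them. Pcna, the sliding clamp of replication and repair, was the member not called (1640, 1315 and 1276 against 1744, 1626 and 1539). Genes of the list are known to be controlled through CCAAT boxes, E2F sites and the CHR element TTTGAA. The CCAAT box was found in 22 of 28 of their promoters (78.6%), against 38.1% of all. TTTGAA was found in 12 (42.9%), against 12.2%, and an E2F site (TTTCGCGC, TTTGGCGC or TTTCCCGC) in 6 (21.4%), against 3.19%. The 200 bases before the start of Tyms held 0 matches to any of these motifs. Those of Mcm2 held 1 CCAAT box, 1 TTTGAA and 0 E2F sites. The 200 bases before the start of Mcm6 (chr1:128359706-128359905, minus strand) hold 2 CCAAT boxes, read here as ATTGG, and 3 E2F sites, of which the first pair overlap, all in capitals.
Mcm6: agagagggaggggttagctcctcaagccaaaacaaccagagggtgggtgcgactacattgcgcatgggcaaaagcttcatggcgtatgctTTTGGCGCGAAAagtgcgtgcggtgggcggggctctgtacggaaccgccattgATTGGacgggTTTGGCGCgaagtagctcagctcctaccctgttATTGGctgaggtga

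All 21 tested genes of cytosolic ribosomal proteins fell, with a median log2 fold change of -0.94. Rplp0, of the ribosomal stalk, stood at 4512, 3903 and 4300 in the P14 libraries, against 11356, 11173 and 9911 in the P3 libraries (log2 fold change -1.35 ± 0.08 SE, adjusted p = 2.16e-08), and Rps3, Rps9 and Rpl4 fell by 1.08, 0.95 and 0.97 on the log2 scale. These genes have many pseudogene copies, with which reads can be shared.

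Of 22 imprinted and fetal growth genes, 14 fell and 5 rose, with a median log2 fold change of -1.48. H19, the imprinted noncoding RNA (chromosome 7, 142575530 to 142578146), stood at 7047, 5293 and 8060 in the P14 libraries, against 142750, 176410 and 178030 in the P3 libraries (log2 fold change -4.62 ± 0.15 SE, adjusted p = 2.53e-10). Its neighbour Igf2, the fetal growth factor, stood at 26784, 29034 and 40049, against 99397, 108370 and 120420. Plagl1, a transcription factor of the imprinted network (-3.0 ± 0.10, adjusted p = 2.87e-10), Grb10, an inhibitor of growth factor signalling (-2.76 ± 0.16), and Igf2bp3, an RNA-binding protein of fetal tissue (-2.53 ± 0.13), fell as well. The members that rose were Snrpn, which neurons express (2.01 ± 0.13, adjusted p = 3.02e-08), Nnat (1.07 ± 0.39, adjusted p = 0.0308), Meg3 (0.65 ± 0.25, adjusted p = 0.0393), Dcn (0.38 ± 0.07, adjusted p = 0.000575) and Ndn (0.26 ± 0.10, adjusted p = 0.0298). Nnat, Meg3 and Ndn were each not called without P14 replicate 3 or P3 replicate 2, Nnat and Meg3 not without P14 replicate 2, Meg3 not without P3 replicate 1 and Ndn not without P14 replicate 1 (adjusted p between 0.0632 and 0.158). With quantile normalization 1 member rose and the change of Dcn turned negative (-0.03, adjusted p = 0.779).

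**Figure D4:**
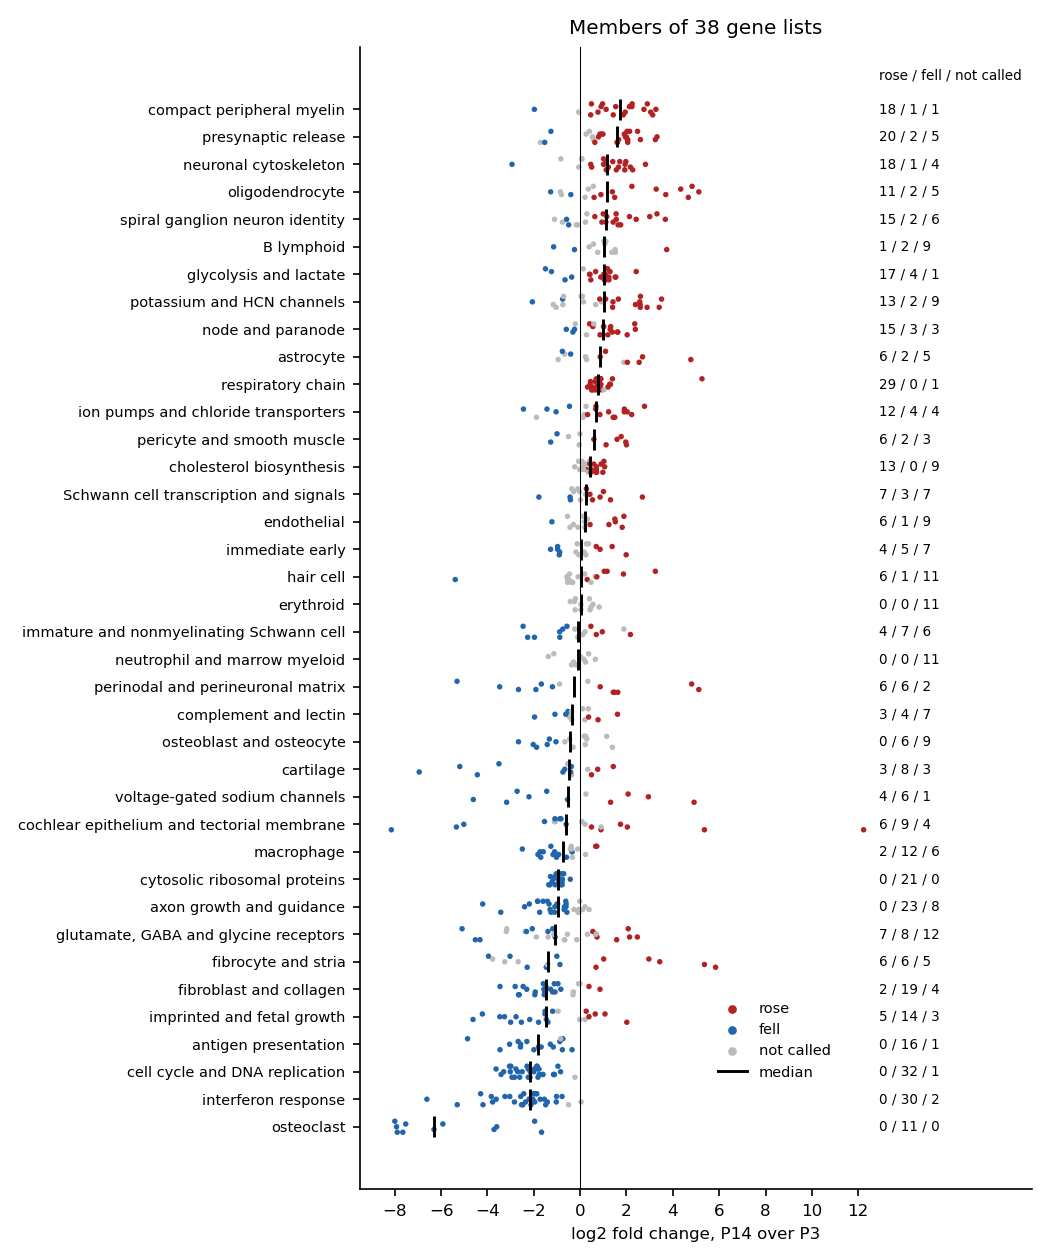
Log2 fold change of P14 over P3 (horizontal axis) of the members of 38 gene lists, 1 point per gene, coloured by whether it rose, fell or was not called, with the median as a black bar and the 3 counts at the right. Lists run by their median, with compact peripheral myelin at the top (18 rose, 1 fell) and osteoclast genes at the bottom (0 rose, 11 fell).

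Interferons induce GTPases, nucleic acid sensors and chemokines through transcription factors of the STAT and IRF families. Of 32 such genes, 0 rose, 30 fell and 2 were not called, with a median log2 fold change of -2.16. Interferon response elements hold repeats of the letters AANNGAAA. That motif, on either strand, was found in 18 of 24 promoters of the list (75%), against 18.5% of all promoters of tested genes. The 200 bases before the start of Ifi47 held 1 match, which begins at position -181. Shown are the 200 bases before the start of 3 GTPase and antiviral genes, Tgtp1 (chr11:48992247-48992446, minus strand), Igtp (chr11:58199356-58199555, plus strand) and Ifi44 (chr3:151749911-151750110, minus strand), with the matches in capitals. Those of Tgtp1 begin at positions -81 and -75, those of Igtp at -38 and -32, and those of Ifi44, which read in the reverse direction, at -55, -48 and -9.
Tgtp1: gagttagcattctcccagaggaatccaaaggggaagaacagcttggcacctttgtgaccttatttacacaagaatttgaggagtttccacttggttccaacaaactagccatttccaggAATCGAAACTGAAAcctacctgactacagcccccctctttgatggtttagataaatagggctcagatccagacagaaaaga
Igtp: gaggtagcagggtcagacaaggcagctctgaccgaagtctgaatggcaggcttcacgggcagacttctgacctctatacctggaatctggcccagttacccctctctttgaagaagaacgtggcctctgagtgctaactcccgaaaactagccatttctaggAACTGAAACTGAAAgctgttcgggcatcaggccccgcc
Ifi44: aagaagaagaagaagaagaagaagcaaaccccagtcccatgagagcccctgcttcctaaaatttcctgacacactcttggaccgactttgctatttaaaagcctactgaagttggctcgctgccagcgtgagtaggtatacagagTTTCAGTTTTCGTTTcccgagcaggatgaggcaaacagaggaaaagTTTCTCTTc

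Tgtp1 stood at 78.6, 86.7 and 109 in the P14 libraries, against 1537, 2182 and 1729 in the P3 libraries (log2 fold change -4.29 ± 0.29 SE, adjusted p = 4.79e-08), and has a near-identical paralog with which it can share reads. Igtp stood at 345, 347 and 309, against 1642, 3667 and 3415 (-3.04 ± 0.23, adjusted p = 1.88e-07), and Ifi44 at 91.0, 77.5 and 83.7, against 874, 1112 and 1613 (-3.78 ± 0.30, adjusted p = 2.54e-07). The GTPase genes Iigp1 (-4.19 ± 0.19, adjusted p = 2.17e-09) and Gbp4 (-3.24 ± 0.15, adjusted p = 3.21e-09) fell by similar amounts. P3 replicate 1 was the lowest P3 library for all 32 genes. Ifit1 and Ifit2 were not called. Ifit1 stood at 426, 437 and 379, against 378, 525 and 1001 (-0.50 ± 0.29, adjusted p = 0.152), and fell without P3 replicate 1 (-0.81, adjusted p = 0.0215).

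Of 17 genes of antigen presentation, 0 rose, 16 fell and 1 was not called, with a median log2 fold change of -1.80. Nlrc5, the transactivator of class I genes (chromosome 8, 94472763 to 94527272), stood at 35.2, 69.4 and 33.3 in the P14 libraries, against 529, 1926 and 2072 in the P3 libraries (log2 fold change -4.86 ± 0.45 SE, adjusted p = 1.02e-06), and without P3 replicate 1 its log2 fold change was -5.49. Cd74, the invariant chain of class II, stood at 1065, 890 and 784, against 1413, 4846 and 4579 (-1.80 ± 0.42, adjusted p = 0.0022). The immunoproteasome subunits Psmb9 (-3.04 ± 0.31, adjusted p = 2.09e-06) and Psmb8 (-2.57 ± 0.32, adjusted p = 1.63e-05) and the peptide loader H2-DMb1 (-1.68 ± 0.19) fell too. H2-Eb1, a class II chain, was the member not called (94.1, 72.4 and 91.2 against 47.2, 287 and 266). Genes of the H2 family are similar in sequence and may share reads.

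Of 20 macrophage genes, 12 fell and 2 rose, and their summed level lay between 20118 and 28024 at P14 and between 36338 and 47230 at P3. Cd68, a lysosomal protein that osteoclasts share, stood at 633, 489 and 738 in the P14 libraries, against 2813, 4003 and 3637 in the P3 libraries (log2 fold change -2.49 ± 0.25 SE, adjusted p = 1.95e-06). Csf1r, the receptor that macrophages need to survive (-1.59 ± 0.18), Aif1 (-1.70 ± 0.22) and Tyrobp (-1.73 ± 0.23) fell too. Cd14, a coreceptor for bacterial lipopolysaccharide (0.67 ± 0.13, adjusted p = 0.000601), and Mertk, a receptor for dying cells (0.72 ± 0.14, adjusted p = 0.000557), were the members that rose. The microglial genes P2ry12, Cx3cr1, Sall1 and Trem2 were not called. The part of macrophage and osteoclast markers in the fall of the interferon and antigen presentation genes was not tested.

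Of 14 complement genes, 3 rose and 4 fell, so that 50% were called, against 58.1% of all genes. The inhibitors Cd59a (3270, 3300 and 2538 at P14 against 972, 983 and 999 at P3, log2 fold change 1.61 ± 0.11 SE, adjusted p = 8.22e-08), Serping1 (0.78 ± 0.09, adjusted p = 5.44e-06) and Cd55 (0.37 ± 0.14, adjusted p = 0.0338) rose. Cfb, a component of the alternative pathway (-1.97 ± 0.30, adjusted p = 9.46e-05), C1qc and C3ar1 fell. Cd55 was called only with all libraries in the fit or without P3 replicate 1, its adjusted p lying between 0.0516 and 0.133 without any other 1.

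Of 25 fibroblast and collagen genes, 19 fell and 2 rose, with a median log2 fold change of -1.48. Col1a2, a fibrillar collagen chain (chromosome 6, 4505618 to 4541543), was the most abundant gene of each P3 library and stood at 134930, 144750 and 174530 in the P14 libraries, against 238020, 359080 and 377900 in the P3 libraries (log2 fold change -1.08 ± 0.19 SE, adjusted p = 0.000297). Col12a1, a collagen that sits on the surface of fibrils, fell to 2100, 2598 and 4076, against 21600, 33969 and 40157 (-3.46 ± 0.31, adjusted p = 7.09e-07). Thbs2 (-2.80 ± 0.24), a thrombospondin, Fbn2 (-2.63 ± 0.27), the fibrillin of fetal microfibrils, and Loxl1 (-1.19 ± 0.09), a crosslinking enzyme, fell too. The members that rose were Sparc, a matrix protein that many cells make (288710, 332560 and 236320 against 137300, 176020 and 157510, 0.86 ± 0.13), and Dcn, the proteoglycan decorin (0.38 ± 0.07), whose change turned negative with quantile normalization (-0.03). P14 replicate 3 was the highest P14 library for most collagens that fell, yet below each P3 library.

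Osteoclasts, which resorb bone as the modiolus grows, had the lowest median of the 38 lists. Of 11 osteoclast genes, 11 fell, with a median log2 fold change of -6.31, the fitted value of a gene with 3 reads at P14, and their summed level lay between 5417 and 5885 at P14 and between 94611 and 164140 at P3. Acp5, the tartrate-resistant phosphatase (chromosome 9, 22126727 to 22135746), stood at 276, 44.9 and 539 in the P14 libraries, against 26868, 49405 and 41960 in the P3 libraries (log2 fold change -7.65 ± 0.69 SE, adjusted p = 7.83e-07). Mmp9, the gelatinase of these cells, stood at 174, 31.6 and 351, against 21163, 34478 and 39230 (-7.92 ± 0.62, adjusted p = 2.34e-07), and Atp6v0d2, a subunit of their proton pump, at 10.3, 6.12 and 30.0, against 1874, 3152 and 2659 (-7.53 ± 0.51, adjusted p = 5.97e-08). The fusion genes Ocstamp (0, 0 and 14.0 against 450, 788 and 696) and Dcstamp (0, 1.02 and 10.7 against 537, 817 and 720) were near the floor at P14. Ctsk, the cathepsin of bone resorption, which fibroblasts share, stood at 3924, 3952 and 3269, against 35144, 61844 and 52800 (-3.71 ± 0.21), and Nfatc1, the transcription factor of osteoclast formation, fell by 1.96 on the log2 scale. Without P14 replicate 2 the log2 fold change was -6.63 for Acp5, -6.95 for Mmp9 and -7.34 for Ocstamp. Without P14 replicate 3 it was -8.40 for Acp5, -8.66 for Mmp9, -8.12 for Atp6v0d2, -9.30 for Ocstamp and -8.91 for Dcstamp. Without P14 replicate 1 it was -7.34 for Ocstamp and -7.13 for Dcstamp.

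Of 15 osteoblast and osteocyte genes, 0 rose, 6 fell and 9 were not called. The members that rose were 1 without P14 replicate 3, with both ages only, in edgeR or in limma-voom. Runx2, the transcription factor of the lineage (1572, 1165 and 1749 against 3820, 6436 and 6477, log2 fold change -1.88 ± 0.26 SE, adjusted p = 3.60e-05), Col1a1 (27192, 25077 and 46663 against 138020, 228990 and 253290, -2.66 ± 0.42, adjusted p = 0.000111), Sp7 (-1.42 ± 0.28) and Ifitm5 (-2.02 ± 0.31) fell. Genes of mineralized matrix and osteocytes, such as Spp1, Dmp1, Mepe and Sost, were not called, and Ibsp stood at 52955, 33679 and 63644 at P14, against 48158, 84981 and 70820 at P3. Of 14 cartilage genes, 8 fell and 3 rose. Besides Col10a1, Matn1 (13.4, 19.4 and 15 against 672, 594 and 575, -5.19 ± 0.38, adjusted p = 1.04e-07) and Comp (12.4, 7.14 and 25.8 against 233, 319 and 394, -4.43 ± 0.50) fell, both matrix proteins of true cartilage. Col2a1, which the cochlea also makes, was not called (134660, 173960 and 184950 against 181420, 210740 and 243990, adjusted p = 0.118), but fell with quantile normalization (-1.08, adjusted p = 0.000251). Hapln1, Col11a2 (0.49 ± 0.20, adjusted p = 0.0461) and Cnmd (0.76 ± 0.28, adjusted p = 0.035) rose. Col11a2 was called only with all libraries or without P14 replicate 1, and Cnmd only with all libraries, without P14 replicate 3 or without P3 replicate 1.

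Among endothelial genes 6 of 16 rose, 1 fell and 9 were left without a call, a share below the 58.1% of all genes, and the general markers Pecam1, Cdh5 and Tek were not called. Without P3 replicate 1, 2 members fell, as they did with quantile normalization, both ages only, DESeq2 or limma-voom. Mfsd2a, the lipid transporter of the blood-brain and blood-labyrinth barriers (chromosome 4, 122946851 to 122961188), stood at 3616, 3636 and 3560 in the P14 libraries, against 935, 1071 and 1069 in the P3 libraries (log2 fold change 1.82 ± 0.08 SE, adjusted p = 1.75e-09). The efflux pump Abcb1a (1.5 ± 0.14, adjusted p = 7.97e-07), the anion transporter Slco1a4 (1.89 ± 0.17, adjusted p = 7.63e-07) and the glucose transporter Slc2a1 rose likewise. Kdr, the receptor of angiogenesis, was the member that fell (1012, 1162 and 1472 against 2322, 2953 and 3174, -1.22 ± 0.20, adjusted p = 0.000183). Of 11 pericyte and smooth muscle genes, 6 rose and 2 fell. Rgs5, of pericytes (1.12 ± 0.12), and the contractile genes Tagln (1.97 ± 0.22) and Acta2 (1213, 4878 and 3156 against 605, 720 and 668, 2.0 ± 0.37, adjusted p = 0.000406) rose, and Cspg4 and Notch3 (-1.0 ± 0.28, adjusted p = 0.00842) fell.

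Of 19 genes of cochlear epithelium and tectorial membrane, 6 rose and 9 fell. The tectorins fell together with the otoconial matrix gene Oc90, while Ceacam16, which joins the tectorial membrane later, rose. Tectb stood at 2431, 2320 and 1852 in the P14 libraries, against 82890, 88698 and 94152 in the P3 libraries (log2 fold change -5.34 ± 0.24 SE, adjusted p = 2.27e-09), and Oc90 at 839, 617 and 478, against 21708, 24718 and 15752 (-5.02 ± 0.25, adjusted p = 5.29e-09). The connexin genes Gjb6 (21623, 23809 and 15993 against 6787, 4613 and 3782, 2.04 ± 0.20, adjusted p = 1.56e-06) and Gjb2 (0.90 ± 0.17, adjusted p = 0.000582), whose loss deafens mice and humans, and the serine protease gene Tmprss9 (1.74 ± 0.27) rose. Of 17 fibrocyte and strial genes, 6 rose and 6 fell, and the summed level, mostly Coch and Otos, lay between 396250 and 785410 at P14 and between 42933 and 70046 at P3. Emilin2 (21976, 25008 and 15532 against 2365, 2670 and 2824, 2.97 ± 0.28) and Slc4a11, a transporter of fibrocytes (727, 825 and 379 against 59.0, 57.9 and 49.9, 3.44 ± 0.27), rose. Strial and melanocyte genes differed widely within an age, for example Dct at 92.0, 1976 and 149, against 6755, 2784 and 379, and 10 members of the list fell without P14 replicate 2, which held the most of them at P14.

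Among 18 hair cell genes, 6 rose, 1 fell and 11 did not pass the test. Their summed level lay between 69101 and 76289 at P14 and between 40061 and 41830 at P3, which includes genes that neurons share. Atoh1, the transcription factor that founds hair cells, stood at 1.03, 0 and 0 in the P14 libraries, which is 1 read in all, against 58.2, 43.7 and 55.6 in the P3 libraries. Ocm, the calcium buffer of outer hair cells, rose to 3836, 2999 and 1914, against 260, 359 and 274 (log2 fold change 3.25 ± 0.58 SE, adjusted p = 0.000332), and Lhfpl5, a part of the transduction channel complex, rose by 0.72 ± 0.13 (adjusted p = 0.000344). Otof, Myo7a and Pou4f3 were not called. Without the libraries low in Eif2s3y 4 members fell.

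Of 11 erythroid and 11 neutrophil genes, 0 were called by limma, and 1 neutrophil gene fell without P14 replicate 1. The summed erythroid markers were 35366, 17356 and 17637 in the P14 libraries, against 17764, 21662 and 10810 in the P3 libraries, and the neutrophil markers 6975, 1755 and 2030, against 2327, 5347 and 2478. Of 12 B lymphoid genes, 1 rose and 2 fell, with 2 rising without P14 replicate 2 or with the replicate block, 3 without P3 replicate 2 and 5 with quantile normalization. Dntt rose, at 86.8, 12.2 and 9.66 against 1.69, 0.949 and 0 (log2 fold change 3.74 ± 0.81 SE, adjusted p = 0.00137), with a log2 fold change of 2.78 without P14 replicate 1. Ebf1 (-0.24 ± 0.08, adjusted p = 0.0143) and Rag1 (-1.14 ± 0.43, adjusted p = 0.0359) fell, Ebf1 not without P14 replicate 3 (adjusted p = 0.0557) or P3 replicate 2 (adjusted p = 0.0604), and Rag1 not without P14 replicate 2, P3 replicate 1 or P3 replicate 2 (adjusted p between 0.0773 and 0.182).

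**Figure D5:**
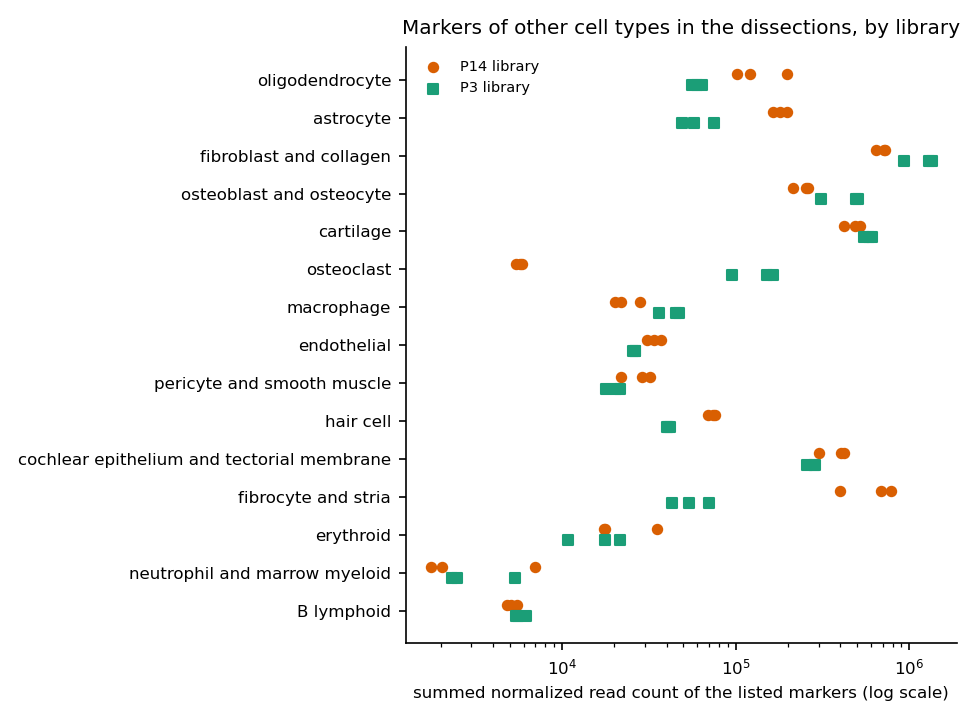
Summed normalized read count of the markers of each of 15 other cell types (horizontal axis, log scale) in each P14 library (circles) and P3 library (squares). Osteoclast markers were lower at P14 (5417 to 5885, against 94611 to 164140 at P3), the summed fibrocyte and strial level, mostly Coch and Otos, was higher at P14 (396250 to 785410, against 42933 to 70046 at P3) with 6 members rising and 6 falling, and marrow markers overlapped between the ages.

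Of 16 immediate early genes, 4 rose and 5 fell, a share of calls (56.25%) near the 58.1% of all genes. Arc, which neurons induce after firing, stood at 539, 524 and 722 in the P14 libraries, against 126, 158 and 162 in the P3 libraries (log2 fold change 1.99 ± 0.24 SE, adjusted p = 1.18e-05). Dusp1 (1.38 ± 0.23, adjusted p = 0.000167), Egr2 and Jun also rose, and Egr2 and Jun belong to the Schwann cell lists too. Fos stood at 471, 565 and 533, against 822, 1049 and 1073, and Fosl2 (-1.28 ± 0.21, adjusted p = 0.000167) and Ier2 (-0.97 ± 0.12, adjusted p = 1.78e-05) fell with it. Without P3 replicate 2 or without P3 replicate 3, 3 members fell. Npas4, which neurons induce on depolarization, was not called and stood at 17.2 or less in each of the 6 libraries.

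The level at the other ages places these differences in time, with means ± SD over 3 libraries given from P3 through P7, P14 and P21 to the adult. Nlrc5 stood at 1509 ± 852, 23.1 ± 5.49, 45.9 ± 20.3, 59.5 ± 11.1 and 64.1 ± 14.0, so that its P7 mean was already below its P14 mean. Pmp22 stood at 63320 ± 12732, 267110 ± 34108, 241590 ± 25547, 137120 ± 19559 and 59504 ± 911, and Msmo1 at 2477 ± 153, 5489 ± 179, 5166 ± 242, 6116 ± 1177 and 2987 ± 112, both with P7 means above their P14 means. Slc17a7 and Scn8a differed little between P3 and P7 in their means. Slc17a7 stood at 3115 ± 685, 3624 ± 215, 17135 ± 1115, 17052 ± 835 and 26686 ± 2955, and Scn8a at 1492 ± 448, 1155 ± 56.4, 6108 ± 612, 7723 ± 1684 and 20841 ± 908. H19 stood at 165730 ± 19916, 106710 ± 6315, 6800 ± 1400, 2043 ± 255 and 625 ± 88.6. Ceacam16 stood at 9.70 ± 1.43, 87.5 ± 27.6, 53013 ± 15452, 52349 ± 6532 and 19807 ± 6257. Pmp22 was higher at P14 than in the adult, whereas Slc17a7 and Scn8a were highest in the adult.

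The median exonic length, from GENCODE M21, was 4025 bases for genes that rose, 4557 for genes that fell and 4223 for all genes tested. The median span on the genome was 20289, 24027 and 21424 bases in the same order. Promoters held a median of 19 CG dinucleotides among genes that rose, among genes that fell and among all genes tested, and a median of 14 among those that rose at least 2-fold and 13 among those that fell at least 2-fold. The IRF motif was found in 16.3% of promoters of genes that rose and 20.1% of genes that fell, the E2F motif in 2.21% and 4.24%, and the NRF1 motif in 12.7% and 10.8%. CCAAT was found in 38% and 38.8%. Such matches describe the letters of the promoter and do not show that a factor binds there.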

How the data were processed

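Auditory nerve RNA of 15 mice (3 per age, both cochleae pooled per mouse) was sequenced. Per the submitters' processing notes, Partek, TopHat2, DESeq2 and the mm10 genome were used, without further detail; annotation, counting settings and use of strand are not given in the sources used here. The authors deposited normalized read counts, a signal equal to reads divided by 1 size factor per library, with p-values and signed fold changes (a score without a true zero) of their own comparisons. Dividing by the value of 1 read gave whole reads for 99.9% of positive values (tolerance 0.1), 38114662 to 41306627 per P14 and P3 library.

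The deposited values are normalized, so limma 3.58.1 (R 4.3.3; trend, robust) was run on log2(value + 1). Genes of at least 10 in 3 or more libraries were kept, all 15 libraries entered 1 fit, and the contrast P14 over P3 was adjusted by Benjamini-Hochberg (two-sided, threshold 0.05). Fold changes on this scale understate the change of low genes. Nothing states that libraries are separate litters, so p-values measure the spread between these libraries. Alternatives were other pseudocounts, filters and scalings, both ages alone, tests of the recovered reads with edgeR 4.0.16, DESeq2 1.42.0 or voom in limma, a replicate block, a minimal fold change and left-out libraries. Fits were tested on simulated data with 200 of 16555 genes changed, where DESeq2 made more false calls than limma, edgeR or voom. Genes were named by rule. The rule took 10 called genes per direction by size of change, without overlap and above a minimum level, the 3 most abundant of each age, up to 4 called genes of a list by adjusted p, both genes of a pair, some set markers, and genes called against most of their list. Some genes of the rule are not reported here. Any other list member given was picked with its values in view. The members and lists were chosen with earlier results of these data known. Exonic lengths came from GENCODE M21 and promoters from RefSeq (GRCm38.p6).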

Additional observations from a re-analysis of the deposited data

How the results depend on the processing

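Of 19 alternatives, 18 kept the count of called genes within 1.5 times, and none called a gene in the direction opposite to its call here. A minimal log2 fold change of 1 left 1480 genes called (803 rose, 677 fell), with 137 named genes and 210 list members among them. On the recovered reads, edgeR called 9711 genes and limma-voom 9779. DESeq2 called 10101. It made more false calls than the other tools on simulated data. There, only 200 of 16555 genes were changed, so that share of false calls does not carry over to these data. With single libraries left out, 8648 to 9302 genes were called, 4370 to 4627 rose and 4259 to 4675 fell. Deviations from the mean of the age had correlations of -0.034, 0.051 and 0.229 between same-numbered libraries. Between libraries of other numbers they lay between -0.272 and 0.230. Deviations from a mean of 3 libraries offset one another, so these values cannot decide whether the numbers pair the libraries. With the replicate block 8991 genes were called, against 9231 in the same 12 libraries without it. Of 227 named genes called, 23 lost the call in at least 1 alternative other than the minimal fold change. The sign changed with quantile normalization for Dcn (-0.03394), Dnmt3a (-0.1933), Slc12a2 (-0.06951) and Tuba1a (-0.3536, adjusted p = 0.0293, called as falling there and not called with the other settings). It changed for Dnmt3a without P14 replicate 3 (-0.09423), P3 replicate 1 (-0.06319) or P3 replicate 2 (-0.0001194), for Kcnc4 without the same libraries (-0.1832, -0.02353 and -0.03288), and for Tuba1a without P3 replicate 2 (-0.006212). With single libraries left out, the values of these lay between -0.09423 and 0.1199 for Dnmt3a, -0.1832 and 0.2873 for Kcnc4, and -0.006212 and 0.09595 for Tuba1a. The cause was not tested. Genes near 3 reads per library are limited by depth.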
